A study of Mus musculus with 60 samples.

Results

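The comparison described here is that of liver RNA from 4 DEL mice given 2,3,7,8-tetrachlorodibenzo-p-dioxin (TCDD) at 500 µg/kg with liver RNA from 5 DEL mice given corn oil, over all 21115 gene rows. These 9 arrays are those whose labels name the DEL line and either that dose or the vehicle, out of 60 arrays in 15 groups. DEL is 1 of 3 transgenic mouse lines, with rWT and INS, named for variants of the aryl hydrocarbon receptor (AHR), all on a C57BL/6J background. The labels and the design text describe neither the form of the DEL receptor nor the promoter that drives it nor the number of founders. All 9 mice were male, 12 to 15 weeks old and housed singly. Each had 1 oral gavage, either of corn oil alone (10 mL/kg) or of TCDD in that vehicle, and the liver was taken 96 hours later. Each animal had an array of its own, so the replicates are separate mice. Set beside them, for single comparisons, were the DEL mice given 125, 250 or 1000 µg/kg (4 at each dose) and the INS mice given corn oil (5) or 500 µg/kg (4), which had the same background, sex, age range and exposure time.

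TCDD is the prototype ligand of AHR, a transcription factor that waits in the cytosol with heat shock protein chaperones, moves to the nucleus when a ligand binds, and pairs there with ARNT. The pair binds a short response element whose core is GCGTG and raises the transcription of genes of foreign compound metabolism, such as Cyp1a1, and of genes that dampen the receptor itself, such as Ahrr and Tiparp. In rodent liver a high dose of TCDD is known for fat accumulation, inflammation, loss of male-typical gene expression, changed glucose and bile acid metabolism, and wasting of the animal.

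Because AHR acts through that core, the stretches around the start sites of the 6 canonical AHR genes called higher in this comparison are shown first. Each runs from 250 bases before to 50 bases after the start in the RefSeq table of GRCm38.p6, where all 6 were matched by Entrez ID, and is written 5′ to 3′ on the strand of the gene. Capitals mark GCGTG or its reverse complement CACGC, so that both strands were searched, and the pair cannot overlap another motif since no other was looked for.
Cyp1a1 (chr9:57697363-57697662, plus strand): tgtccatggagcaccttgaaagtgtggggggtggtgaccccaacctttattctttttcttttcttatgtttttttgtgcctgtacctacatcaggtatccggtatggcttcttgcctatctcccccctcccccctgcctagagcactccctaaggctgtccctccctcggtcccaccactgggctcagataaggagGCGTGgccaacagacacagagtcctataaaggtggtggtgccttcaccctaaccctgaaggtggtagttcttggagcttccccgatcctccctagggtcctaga
Cyp1b1 (chr17:79715012-79715311, minus strand): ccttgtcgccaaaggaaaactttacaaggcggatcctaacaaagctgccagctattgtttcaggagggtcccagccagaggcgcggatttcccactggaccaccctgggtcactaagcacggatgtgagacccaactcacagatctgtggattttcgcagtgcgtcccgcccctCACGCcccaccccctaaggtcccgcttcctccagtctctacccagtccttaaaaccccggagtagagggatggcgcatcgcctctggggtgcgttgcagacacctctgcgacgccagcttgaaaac
Ahrr (chr13:74292282-74292581, minus strand): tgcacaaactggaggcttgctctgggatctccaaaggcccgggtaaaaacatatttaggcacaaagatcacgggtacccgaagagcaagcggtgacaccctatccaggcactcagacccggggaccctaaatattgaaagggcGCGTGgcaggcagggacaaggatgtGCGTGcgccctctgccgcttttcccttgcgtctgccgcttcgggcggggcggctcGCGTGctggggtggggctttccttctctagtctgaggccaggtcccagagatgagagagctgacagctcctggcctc
Tiparp (chr3:65528197-65528496, plus strand): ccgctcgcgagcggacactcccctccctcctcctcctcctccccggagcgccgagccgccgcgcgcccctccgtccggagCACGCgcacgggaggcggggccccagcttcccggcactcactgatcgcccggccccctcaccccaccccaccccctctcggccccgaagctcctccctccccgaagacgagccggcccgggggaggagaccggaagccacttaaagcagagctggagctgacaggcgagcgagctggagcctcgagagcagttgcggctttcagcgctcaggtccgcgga
Cyp1a2 (chr9:57683606-57683905, minus strand): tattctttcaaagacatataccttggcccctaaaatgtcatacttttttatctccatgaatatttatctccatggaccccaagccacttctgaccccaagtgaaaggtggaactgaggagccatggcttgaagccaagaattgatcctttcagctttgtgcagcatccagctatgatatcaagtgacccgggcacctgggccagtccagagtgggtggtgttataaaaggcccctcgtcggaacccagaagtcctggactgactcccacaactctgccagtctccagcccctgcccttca
Nqo1 (chr8:107403156-107403455, minus strand): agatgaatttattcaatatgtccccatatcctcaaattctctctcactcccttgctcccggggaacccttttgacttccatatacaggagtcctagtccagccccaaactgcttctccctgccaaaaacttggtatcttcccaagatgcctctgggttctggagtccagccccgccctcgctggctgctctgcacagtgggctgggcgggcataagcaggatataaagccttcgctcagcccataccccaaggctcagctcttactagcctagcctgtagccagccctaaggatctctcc
The Ahrr window holds 3 copies of the core and the Cyp1a1, Cyp1b1 and Tiparp windows 1 each, whereas the letters do not occur in the Cyp1a2 and Nqo1 windows. The core occurs in 32.4% of all 32851 windows of this length in the table. Among windows of genes called higher in DEL liver the share was 45.6%, among those of genes called lower 44.4%, and among those of genes not called 38.8%. Among genes that changed by 1 or more on the log2 scale it was 39.7% for those called higher and 36.6% for those called lower, beside the 38.8% of genes not called. Mean GC content was 59.3%, 59.0%, 55.8%, 57.4% and 56.3% in the order given. It ran in the order of the shares except that genes called lower by 1 or more had the lowest share but not the lowest GC content. The part of GC content in these shares was not tested.

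The deposited values are log2 expression values, so that a difference of 1 is a 2-fold change. Values near the bottom of the scale cannot be told from background here, so no fold is given where 1 group reads low. Whether values near the top, such as those of Cyp1a1 and Cyp1a2 under TCDD, understate differences was not tested. The 9 arrays had mean levels of 6.23 to 6.29. Array medians were 5.81 to 5.90 in the corn oil mice and 6.07 to 6.22 in the treated mice. Centring every array on its median would therefore lower all treated values. Pairs of corn oil arrays correlated at r = 0.9893 to 0.9934 over genes, pairs of treated arrays at 0.9812 to 0.9912, and pairs across the groups at 0.9415 to 0.9703 (genes are not independent replicates). Sex-linked genes went with the label on all 9 arrays, with Xist at 2.49 to 3.13 and the Y-linked Eif2s3y at 9.04 to 9.65. In whole liver, fewer cells of a type and less RNA per cell cannot be told apart.

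Treated replicate 3 stood apart from the other 3 treated mice. Its profile, projected on the mean change of those 3, carried 68.0% of their response, against 98.5% to 110.1% for each of the others set against the remaining 3. It was the highest treated array in 557 of the 764 gene rows that fell by 1 or more (72.9%, against 7.98% to 9.95% for the others). It was also the lowest in 807 of the 1407 rows that rose by 1 or more (57.4%). Its Cyp1a1 value was nevertheless the highest of the 4. Without it 6033 rows were called, of which 5488 were shared with the full comparison. Values without this mouse are given below for some genes only. Other falls that deepened without it included Car3 (-4.75 to -5.80), Elovl3 (-4.59 to -5.62), Slco1a1 (-5.27 to -6.16), Cyp4f14 (-4.52 to -5.34), Ces3b (-4.23 to -5.05) and Otc (-3.47 to -4.19). Among the genes named below, the calls of Dbp, Tef, Psmc4, Epcam and Gcg were lost without it.

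TCDD at 500 µg/kg changed 6026 of the 21115 gene rows in DEL liver (28.5%), 3241 of them higher (15.3%) and 2785 lower (13.2%), by limma's moderated test at a Benjamini-Hochberg adjusted p under 0.05. A change of at least 2-fold was found in 1407 rows that rose and 764 that fell. The 4 treated arrays lay all above the 5 corn oil arrays in 2868 rows (13.6%) and all below in 2575 (12.2%). Over all rows the median difference was -0.04. The shares of all rows called higher and lower are the measure for every list count below. The split between rises and falls depends on scaling: after median centring, which moved the median of all rows to -0.31, 9632 rows were called, 2068 higher and 7564 lower. That is 21.5% higher, against 53.8% with the values as deposited.

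**Figure D1:**
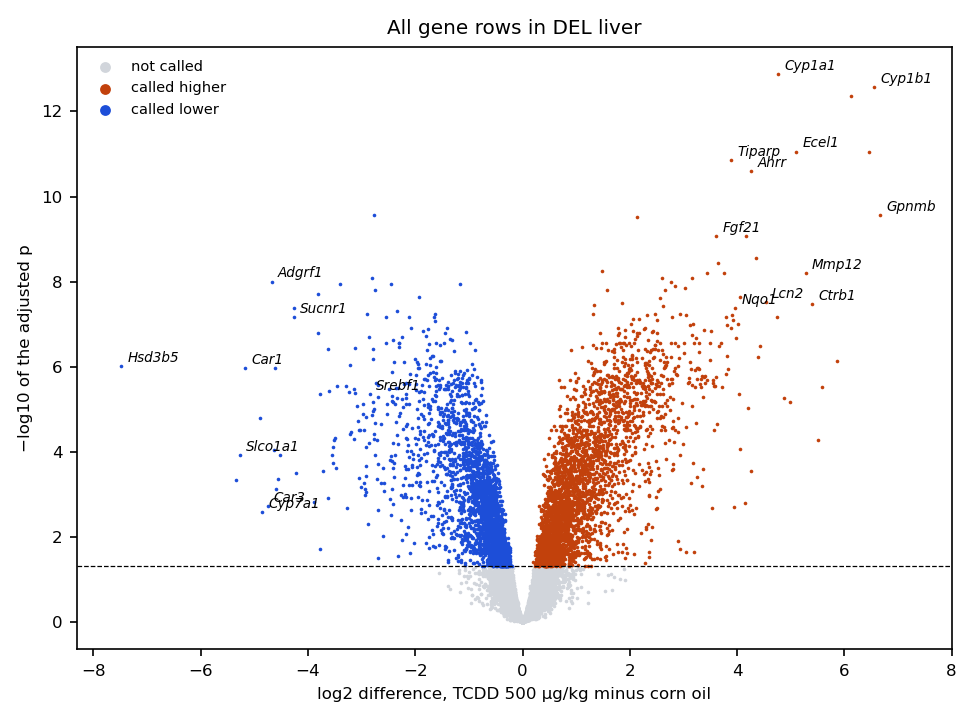
Each point is 1 of the 21115 gene rows, with the log2 difference between TCDD 500 µg/kg and corn oil in DEL liver on the x axis and minus log10 of the adjusted p on the y axis. Orange rows were called higher (3241) and blue rows lower (2785). The dashed line marks an adjusted p of 0.05, and the AHR genes Cyp1a1 and Cyp1b1 lie highest.

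Of the 8 AHR genes followed throughout, 6 were higher in every treated mouse than in any control, by 0.68 to 6.55 on the log2 scale. Cyp1a1 (Entrez 13076, chromosome 9), the monooxygenase gene used as the standard readout of the receptor, read 8.53, 8.62, 7.53, 8.21 and 7.76 in the 5 corn oil mice and 12.79, 12.87, 13.02 and 12.92 in the 4 treated mice. The groups did not overlap, and the treated arrays lay within a far narrower range than the corn oil arrays. The difference was 4.77 ± 0.16 (SE; adjusted p = 1.34e-13), which is 27.2-fold. Cyp1b1 (13078, chromosome 17), its relative that metabolises oestradiol and polycyclic hydrocarbons, read 6.68, 5.60, 5.53, 4.93 and 5.60 under corn oil and 12.31, 12.45, 11.91 and 12.20 under TCDD. Again no treated array came near a corn oil array, and the rise was 6.55 ± 0.24 (adjusted p = 2.66e-13). Cyp1a2 (13077, chromosome 9), which adult liver makes at a high level without any inducer and whose protein binds TCDD, read 12.87, 12.69, 12.58, 12.82 and 12.83 under corn oil and 13.43, 13.31, 13.49 and 13.50 under TCDD. Its groups were separate too, and the rise read 0.68 ± 0.08 (adjusted p = 2.01e-06). Both groups read high on the scale, and whether the array shows the full rise there was not tested.

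The feedback genes of the receptor and Nqo1 followed. Ahrr (11624, chromosome 13), which encodes a repressor that competes with AHR for ARNT, read 3.85, 4.39, 4.30, 4.21 and 4.33 under corn oil and 8.46, 9.01, 8.66 and 7.78 under TCDD. Tiparp (99929, chromosome 3), whose product ADP-ribosylates AHR, read 6.68, 6.79, 7.02, 6.69 and 6.93 under corn oil and 10.75, 10.81, 11.06 and 10.19 under TCDD. For both genes all treated arrays were above all corn oil arrays, and treated replicate 4 was the lowest of the treated mice. Ahrr rose by 4.26 ± 0.21 (adjusted p = 2.52e-11) and Tiparp by 3.88 ± 0.18 (adjusted p = 1.36e-11). Nqo1 (18104, chromosome 8), a quinone reductase under both AHR and NRF2, read 7.31, 7.44, 7.89, 7.59 and 7.47 under corn oil and 11.66, 11.69, 10.93 and 11.73 under TCDD, with treated replicate 3 below the other 3 treated mice but still above every control. It rose by 3.96 ± 0.32 (adjusted p = 4.17e-08).

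The receptor gene itself did not pass the test. Ahr (11622, chromosome 12) read 9.48, 9.37, 9.18, 9.31 and 9.48 under corn oil and 9.43, 9.29, 9.39 and 9.55 under TCDD, and the groups overlapped (0.05 ± 0.14, adjusted p = 0.832). Whether this row reads the transgene, the mouse gene or both was not tested. Aldh3a1 (11670, chromosome 11), an aldehyde dehydrogenase gene that AHR induces in other settings, stayed between 4.06 and 4.58 on all 9 arrays (-0.05 ± 0.27, adjusted p = 0.929). Of 5 measured members, 0 rose, 0 fell and 5 did not pass the test in the receptor complex list. Its furthest values were 0.31 ± 0.29 for the chaperone Hsp90aa1 and -0.20 ± 0.13 for the co-chaperone Ptges3. Of 14 measured members, 10 rose, 0 fell and 4 did not pass the test in the AHR target list, with a median of 1.23 against -0.04 over all rows. Beside the genes above, Ugt1a7c, a glucuronosyltransferase gene, led it at 5.86 ± 0.61, with 7.11, 5.46, 4.78, 5.29 and 6.87 under corn oil and 12.16, 12.68, 10.12 and 12.10 under TCDD. Treated replicate 3 was the lowest of these 4, and the groups did not overlap. Ugt1a genes share most of their exons, so how far this row reads its relatives was not tested.

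**Figure D2:**
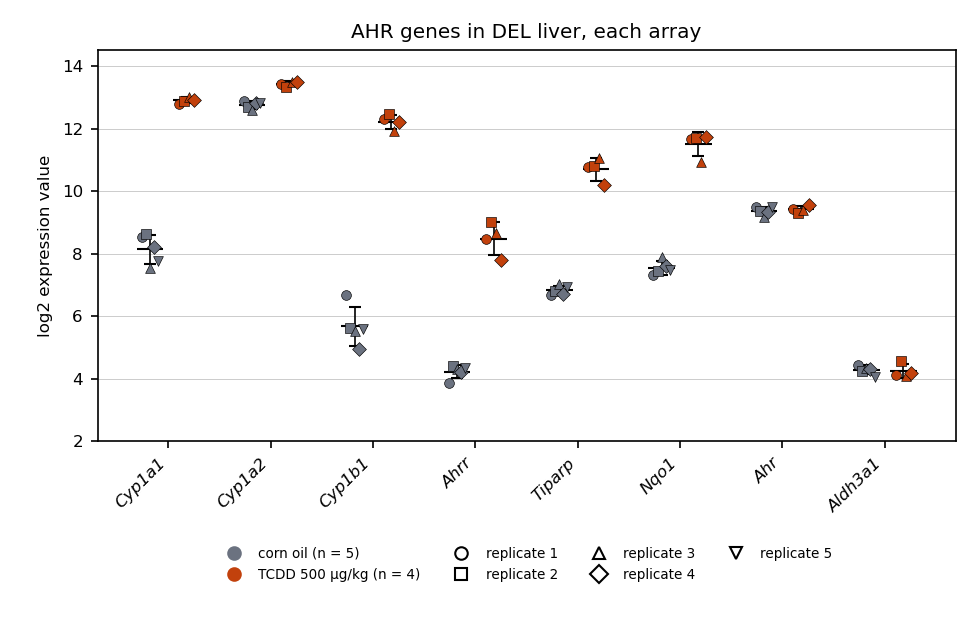
The log2 expression value (y axis) of 8 AHR genes (x axis) on each of the 9 DEL arrays, with grey symbols for corn oil (n = 5) and orange symbols for TCDD 500 µg/kg (n = 4). Symbol shape gives the replicate, and bars give the mean and SD. The groups are apart for Cyp1a1, Cyp1a2, Cyp1b1, Ahrr, Tiparp and Nqo1 and overlap for Ahr and Aldh3a1.

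Antioxidant genes rose in part. Of 21 measured members, 11 rose, 1 fell and 9 did not pass the test among targets of NRF2, the transcription factor of the antioxidant response, with a median of 0.67. The carbonyl reductase gene Cbr3 read 4.21, 4.39, 4.61, 4.26 and 4.37 under corn oil and 8.89, 9.38, 8.74 and 10.40 under TCDD. Slc7a11, which imports cystine for glutathione synthesis, read 4.46, 4.22, 4.18, 4.11 and 4.08 under corn oil and 8.69, 8.46, 7.27 and 9.26 under TCDD. In both genes the groups were far apart, with treated replicate 4 highest and treated replicate 3 lowest. Cbr3 rose by 4.98 ± 0.64, Slc7a11 by 4.21 ± 0.56 (adjusted p = 9.17e-06) and the sulfiredoxin gene Srxn1 by 2.39 ± 0.28. The efflux pump gene Abcc4 rose by 2.40 ± 0.69 (adjusted p = 0.0117), a call that was lost without treated replicate 4 (1.94, adjusted p = 0.0556).

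Drug metabolism genes of the CAR and PXR type mostly went the other way. Of 16 measured members, 0 rose, 10 fell and 6 did not pass the test in the list of targets of these nuclear receptors, which sense foreign compounds. The median was -1.41, and the members ran from -5.34 to 1.68. Without treated replicate 3, 1 member was called higher, and the falls numbered 7 to 10 with 1 array left out. Sult2a8, a sulfotransferase gene, read 11.45, 11.37, 11.21, 11.26 and 11.17 under corn oil and 5.29, 5.16, 8.73 and 4.62 under TCDD. All treated arrays were lower, but treated replicate 3 stood more than 3 log2 units above the other treated mice, and without it the fall of -5.34 ± 1.03 became -6.27. Ces2a, a carboxylesterase gene, fell by 2.75 ± 0.46 (adjusted p = 0.000123). Cyp2c54 read 11.59, 11.37, 11.13, 11.52 and 11.55 under corn oil and 6.45, 6.26, 11.03 and 6.88 under TCDD, so that treated replicate 3 sat just under the control range. Its difference was -3.77 ± 1.18 (adjusted p = 0.0196), and -4.90 without that mouse (adjusted p = 0.00253), whereas the call was lost without any 1 of the other 3 treated mice (largest adjusted p = 0.0713). For Cyp2c50 treated replicate 3 (10.70) lay inside the corn oil range of 10.45 to 11.18. Its difference was -2.70 ± 0.92 (adjusted p = 0.0317) and -3.54 without that mouse, and its call was lost in 7 of the 9 omissions of 1 array.

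Genes that turn cholesterol into bile acids fell together. Of 14 measured members, 0 rose, 12 fell and 2 did not pass the test in this list, whose median was -1.10. Cyp7a1, whose enzyme sets the pace of the classical pathway, read 10.28, 11.19, 10.57, 10.53 and 11.37 under corn oil and 5.92, 5.17, 7.42 and 5.20 under TCDD. The groups did not overlap, and the difference was -4.86 ± 1.14 (adjusted p = 0.00267). Cyp7b1, of the alternative pathway, differed by -2.61 ± 0.47, the conjugation ligase gene Slc27a5 by -2.41 ± 0.43, and Cyp8b1, the sterol hydroxylase that sets the share of cholic acid, by -2.39 ± 0.45 (adjusted p = 0.000391). In these 3 genes the treated arrays were below all controls and treated replicate 3 was the highest of them. Among bile acid and anion transporters, 0 of 12 measured members rose, 6 fell and 6 did not pass, with a median of -1.10. Slco1a1, a male-enriched uptake transporter, read 10.47, 10.61, 10.66, 11.27 and 10.98 under corn oil and 4.62, 4.08, 8.20 and 5.21 under TCDD. It fell by 5.27 ± 0.89 (adjusted p = 0.000122). Its relatives Slco1a4 (-1.96 ± 0.35) and Slco1b2 (-1.74 ± 0.39) fell less, as did Slc10a1, the main sodium-dependent bile acid importer (-1.47 ± 0.37).

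Sterol and fat synthesis genes were lower as well. Of 17 measured members, 0 rose, 14 fell and 3 did not pass the test among cholesterol synthesis genes (median -1.11). The mevalonate pathway kinase Pmvk (-2.12 ± 0.42), the last-step reductase Dhcr7 (-1.69 ± 0.33), the SREBP retention factor Insig1 (-1.67 ± 0.40) and the sterol carrier Stard4 (-1.60 ± 0.32) led the falls. Of fatty acid and triglyceride synthesis genes, 1 of 21 measured members rose, 18 fell and 2 did not pass (median -1.45). Srebf1, the lipogenic transcription factor, read 9.84, 10.21, 9.61, 9.92 and 10.33 under corn oil and 7.10, 6.92, 7.47 and 7.05 under TCDD. Fasn, the fatty acid synthase, read 11.21, 11.90, 10.47, 10.26 and 11.54 under corn oil and 8.20, 7.80, 8.90 and 8.32 under TCDD. Neither gene had a treated array within the corn oil range, and in both the 4 treated mice lay close together. Srebf1 differed by -2.85 ± 0.35 (adjusted p = 4.4e-06) and Fasn by -2.77 ± 0.42 (adjusted p = 3.93e-05). The elongase Elovl3 (-4.59 ± 0.93) and the lipogenic regulator Thrsp (-3.63 ± 0.78) fell further, with treated replicate 3 the highest treated mouse in both.

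Lipid storage and uptake genes changed in both directions. Among lipid droplet, uptake and export genes 7 of 20 measured members rose, 4 fell and 9 did not pass, with 6 rises and 9 falls after median centring. Cidec, a protein of large lipid droplets, read 7.04, 7.31, 6.24, 6.75 and 6.28 under corn oil and 9.76, 11.15, 8.52 and 10.86 under TCDD, with no overlap (3.35 ± 0.67, adjusted p = 0.000659). Lipoprotein lipase Lpl rose by 2.57 ± 0.27 and Fabp4, the fatty acid binding protein of adipocytes and macrophages, by 2.80 ± 0.40. Vldlr, the receptor of very low density lipoprotein, read 4.62 to 5.42 under corn oil and 7.35, 7.94, 5.0 and 7.82 under TCDD, where treated replicate 3 lay within the control range. Its rise of 1.96 ± 0.63 (adjusted p = 0.0246) was lost in 4 of the 9 omissions. In fatty acid oxidation and PPARA targets 2 of 18 measured members rose, 6 fell and 10 did not pass (median -0.27), beside 15.3% of all rows called higher and 13.2% lower. The rises numbered 0 or 1 in 7 of the 9 omissions and 0 with the replicate block, and the falls 10 after median centring. The peroxisomal thiolase Acaa1b (-1.78 ± 0.29), the coactivator Ppargc1a (-1.66 ± 0.25) and Cpt2 (-0.76 ± 0.15) fell. The pyruvate dehydrogenase kinase Pdk4 was higher by 1.86 ± 0.59 (adjusted p = 0.0228), a call lost without corn oil replicate 4 or 5 or treated replicate 2 or 4.

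Glucose and amino acid metabolism was lower across most measured genes. In gluconeogenesis and glucose handling 2 of 17 measured members rose, 11 fell and 4 did not pass (median -0.65). The glucose transporter Slc2a2 read 11.10, 11.39, 10.57, 11.49 and 11.63 under corn oil and 8.0, 8.70, 8.91 and 7.66 under TCDD, and the glycogen synthase Gys2 read 11.02 to 11.76 and 8.38 to 9.42. Both were separate between groups, at -2.92 ± 0.52 and -2.38 ± 0.40. The 2 rises were those of secreted factors. Fgf21, a fasting and stress hormone, read 4.78, 4.87, 4.96, 4.87 and 5.12 under corn oil and 8.02, 8.92, 8.34 and 8.84 under TCDD (3.61 ± 0.22, adjusted p = 8.53e-10). Igfbp1, which binds insulin-like growth factors, rose by 3.62 ± 0.52. Of urea cycle and amino acid breakdown genes 0 of 28 measured members rose, 25 fell and 3 did not pass, with a median of -1.29. The urea cycle enzyme Otc read 11.77, 11.61, 11.82, 11.76 and 11.72 under corn oil and 7.41, 7.17, 10.42 and 8.07 under TCDD, where treated replicate 3 kept the highest value. Otc fell by 3.47 ± 0.63 (adjusted p = 0.000248), Haao of the kynurenine pathway by 2.42 ± 0.54, and the histidine breakdown enzymes Hal and Amdhd1 by 2.41 ± 0.31 and 2.36 ± 0.28.

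Male-typical liver genes showed the deepest falls. Of 17 measured members, 0 rose, 14 fell and 3 did not pass the test in the male-biased list, which had the lowest median of all lists (-2.59). Hsd3b5, a steroid reductase of male mouse liver, read 11.90, 11.85, 11.89, 12.38 and 11.97 under corn oil and 3.71, 3.21, 7.37 and 3.75 under TCDD. Even treated replicate 3 was far below every control, and the other 3 treated mice were lower still by about 4 log2 units. The difference of -7.49 ± 0.80 (adjusted p = 9.74e-07) was -8.44 without treated replicate 3. Serpina4-ps1, a serpin family pseudogene, read 11.32, 11.05, 10.02, 11.23 and 9.81 under corn oil and 4.65, 4.36, 8.93 and 5.22 under TCDD (-4.89 ± 0.68, and -5.94 without that mouse). Of female-biased genes 3 of 13 measured members rose, 2 fell and 8 did not pass, with a median of -0.06. Over all rows 15.3% were called higher and 13.2% lower. The steroid hydroxylase Cyp17a1 differed by -1.90 ± 0.45, although treated replicate 1 (8.46) lay within the control range of 8.15 to 10.81. The acyl-CoA thioesterase Acot3 (1.49 ± 0.32), the flavin monooxygenase Fmo2 (1.46 ± 0.37) and the peroxisomal transporter Abcd2 (1.42 ± 0.24) rose, although Acot3 was not called with all 60 arrays (adjusted p = 0.0609). That fit holds the other lines, including arrays of another line whose sex-linked genes go against their label. In the growth hormone and IGF1 axis 1 of 13 measured members rose, 8 fell and 4 did not pass (median -0.70), with falls in Igfbp2 (-3.53 ± 0.62), the acid-labile subunit Igfals (-1.95 ± 0.33) and the liver factor Onecut1 (-2.88 ± 0.73; its treated replicate 3, 7.85, overlapped the controls).

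The other largest falls among genes whose groups did not overlap included several enzymes of small molecule metabolism. The carbonic anhydrase gene Car1 read 9.76, 9.89, 9.86, 9.88 and 9.70 under corn oil and 4.10, 4.13, 5.82 and 4.52 under TCDD. Car3, a carbonic anhydrase abundant in male liver and fat, read 13.40, 13.49, 13.28, 13.38 and 13.42 under corn oil and 8.73, 7.05, 11.78 and 7.01 under TCDD. Treated replicate 3 was the highest treated mouse in both, most clearly for Car3. Car1 differed by -5.17 ± 0.56, Car3 by -4.75 ± 1.07, Car14 by -4.61 ± 0.50 and the mitochondrial Car5a by -3.06 ± 0.58, in a carbonic anhydrase list where 2 of 10 measured members rose, 5 fell and 3 did not pass. Inmt, an indolethylamine methyltransferase, differed by -4.64 ± 0.76, the uridine phosphorylase Upp2 by -4.56 ± 0.88, the leukotriene hydroxylase Cyp4f14 by -4.52 ± 0.76 and the carboxylesterase Ces3b by -4.23 ± 0.78. Adgrf1, an adhesion G protein-coupled receptor, read 8.41 to 9.73 under corn oil and 4.05 to 5.19 under TCDD, and the succinate receptor Sucnr1 read 9.11 to 9.89 and 4.65 to 5.54. These 2 receptor genes fell with less spread among the treated mice (-4.68 ± 0.34 and -4.26 ± 0.36).

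**Figure D3:**
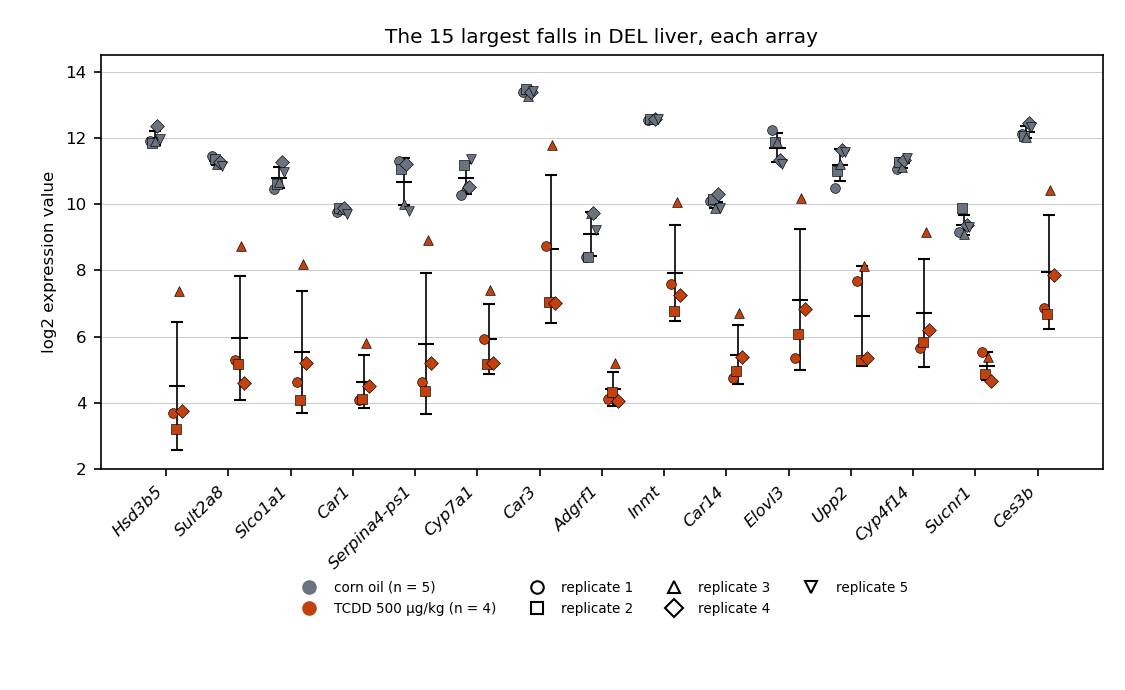
The log2 expression value (y axis) of the 15 largest falls (x axis) on each of the 9 DEL arrays, in grey for corn oil (n = 5) and orange for TCDD 500 µg/kg (n = 4), with mean and SD bars and a symbol for each replicate. The orange triangle, treated replicate 3, is the highest treated value for every gene except Sucnr1, and no treated value reaches the corn oil values of the same gene.

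In liver transcription factors and nuclear receptors 1 of 19 measured members rose, 11 fell and 7 did not pass (median -0.64). Cebpa, a factor of hepatocyte identity, read 9.88, 10.16, 9.79, 10.01 and 10.42 under corn oil and 8.49, 8.56, 8.51 and 8.33 under TCDD, with no overlap and little spread (-1.58 ± 0.19, adjusted p = 2.69e-06). The thyroid hormone receptor Thrb (-1.65 ± 0.19) and the bile acid regulator Nr5a2 (-1.23 ± 0.15) also fell. Of pericentral hepatocyte genes 4 of 19 measured members rose, 13 fell and 2 did not pass, with 8 falls without treated replicate 1. The glutamate transporter Slc1a2 fell by 2.46 ± 0.59, while the neutral amino acid transporter Slc1a4 rose by 2.59 ± 0.36 and the dicarboxylate transporter Slc13a3 by 1.88 ± 0.30. In the circadian clock 0 of 18 measured members rose, 6 fell and 12 did not pass; the falls numbered 3 without corn oil replicate 4, without corn oil replicate 5 or without treated replicate 4, and 3 with all 60 arrays, but 8 after quantile normalization and 11 after median centring. The nuclear receptor Nr1d1 fell by 1.74 ± 0.21 and the output factor Hlf by 1.24 ± 0.27. The output factors Dbp and Tef overlapped between groups, at -2.32 ± 0.77 and -1.21 ± 0.40, and lost their call in 5 and 4 omissions. Corn oil replicate 1 had a Dbp value of 7.0, against 9.23 to 10.99 in the other controls; the labels do not state the time of day at sampling.

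Among retinoid metabolism genes 1 of 17 measured members rose, 6 fell and 10 did not pass, with falls in the adipokine Rarres2 (-1.47 ± 0.25), the dehydrogenases Rdh11 (-1.31 ± 0.23) and Rdh16 (-1.14 ± 0.34; call lost without treated replicate 2) and Stra6l (-1.06 ± 0.19). The 1 rise, of the retinol acyltransferase Lrat (1.03), was lost in 6 omissions, and 15.3% of all rows were called higher. Haem and iron genes were divided: 5 of 17 measured members rose, 4 fell and 8 did not pass, where the rises went from 5 to 3 in 5 omissions (corn oil replicates 1 and 2, treated replicates 1, 2 and 3) and to 0 after median centring, where the falls numbered 9. The hepcidin gene Hamp2 read 6.50, 7.08, 8.22, 8.20 and 7.77 under corn oil and 5.58, 5.09, 5.83 and 5.02 under TCDD, all treated mice being lower (-2.18 ± 0.33). The transferrin receptor Tfr2 (-0.91 ± 0.19) and the haem synthesis enzyme Alad (-0.86 ± 0.19) fell, and the inhibitory Smad gene Smad7 was higher by 0.77 ± 0.24 (adjusted p = 0.0189), which was lost without treated replicate 1 or 2.

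Plasma proteins split between inflammatory rises and falls of hepatocyte products. In acute phase proteins 9 of 23 measured members rose, 6 fell and 8 did not pass (median 0.16), with 6 rises without treated replicate 3 and 3 falls without treated replicate 1 or 4. Lcn2, a siderophore-binding protein of inflamed liver and neutrophils, read 9.44, 8.18, 8.46, 8.58 and 8.25 under corn oil and 13.10, 13.23, 12.84 and 13.28 under TCDD. The groups were about 4 log2 units apart (4.53 ± 0.36, adjusted p = 3.11e-08). The metallothionein Mt2 rose by 2.31 ± 0.43, the interleukin-1 receptor antagonist Il1rn by 2.31 ± 0.30 and the orosomucoid Orm2 by 2.13 ± 0.29. In complement 5 of 21 measured members rose, 14 fell and 2 did not pass, the rises including the C1q chains C1qb (1.90 ± 0.22) and C1qc (1.92 ± 0.31), which macrophages make, and the receptor C5ar1 (3.90 ± 0.33), and the falls including C8a (-1.89 ± 0.44), which hepatocytes make. In coagulation and fibrinolysis 3 of 20 measured members rose, 14 fell and 3 did not pass: prekallikrein Klkb1 fell by 2.63 ± 0.38, while the plasminogen activators Plat and Plau and the receptor Plaur rose by 2.78 ± 0.51, 2.37 ± 0.31 and 2.51 ± 0.21.

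Macrophage markers rose throughout their list and neutrophil markers in part. Of 20 measured members, 20 rose, 0 fell and 0 did not pass the test in the Kupffer cell and macrophage list, with a median of 2.05 and a lowest difference of 0.93. The mean level of the list ran from 7.44 to 7.70 on the corn oil arrays and from 9.41 to 9.93 on the treated arrays, so the groups did not overlap. Gpnmb, a glycoprotein of macrophages that handle lipid, read 5.92, 4.66, 4.78, 4.26 and 5.50 under corn oil and 12.04, 11.97, 11.20 and 11.54 under TCDD. This was the largest rise of all genes named here, at 6.66 ± 0.37 (adjusted p = 2.74e-10). The lipid receptor Trem2 rose by 4.06 ± 0.31, the integrin Itgam by 3.11 ± 0.35 and the fractalkine receptor Cx3cr1 by 2.84 ± 0.42. Of neutrophil markers 9 of 14 measured members rose, 0 fell and 5 did not pass (median 2.35), with mean levels from 4.76 to 5.08 on the corn oil arrays and from 6.51 to 7.38 on the treated arrays. Lcn2 belongs to this list as well as to that of acute phase proteins. The collagenase Mmp8 read 4.04, 3.74, 3.65, 3.15 and 3.34 under corn oil and 8.46, 8.61, 7.37 and 7.58 under TCDD, without overlap (4.42 ± 0.43), and the granule gene Retnlg and the G-CSF receptor Csf3r differed by 2.99 ± 0.47 and 2.77 ± 0.28. The 5 markers that did not pass, Mpo, Elane, Camp, Ngp and Ltf, are granule genes of immature neutrophils and stood between -0.27 and 0.17; they were singled out after their values were seen.

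Chemokines that attract such cells rose in part. In cytokines and chemokines 15 of 27 measured members rose, 1 fell and 11 did not pass (median 0.94). The monocyte chemokine Ccl2 read 5.54, 6.06, 6.36, 5.94 and 5.61 under corn oil and 9.41, 10.03, 10.62 and 8.87 under TCDD, and Ccl7 read 4.08 to 5.20 and 7.90 to 9.94. In both genes the groups were apart and, unlike most of the response, treated replicate 3 was the highest treated mouse. Ccl2 rose by 3.83 ± 0.42, Ccl7 by 4.04 ± 0.50, the macrophage inflammatory protein Ccl3 by 4.01 ± 0.35 and Ccl6 by 3.69 ± 0.35. Interferon-stimulated genes had 12 rises and 0 falls among 21 (median 1.02), led by the ISG15 protease Usp18 (2.62 ± 0.27) and the oligoadenylate synthetase genes Oas2 (2.25 ± 0.29), Oasl2 (2.07 ± 0.27) and Oas1a (1.97 ± 0.31), whose close relatives could share signal with them. Lymphocyte markers had 4 rises and 1 fall among 18 (median 0.21), beside 15.3% of all rows called higher and 13.2% lower. The pan-leukocyte Ptprc (1.87 ± 0.21) and the granzymes Gzma (1.66 ± 0.44) and Gzmb (1.43 ± 0.30) rose. The T helper co-receptor Cd4 fell by 1.0 ± 0.20, with overlapping groups.

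Stellate cell and matrix genes rose as well. Of 20 measured members, 17 rose, 0 fell and 3 did not pass the test in the list (median 1.78), and mean levels ran from 7.24 to 7.50 on the corn oil arrays and from 8.50 to 9.46 on the treated arrays. Timp1, the metalloproteinase inhibitor, read 5.49, 4.99, 5.80, 5.32 and 5.20 under corn oil and 8.23, 9.37, 9.67 and 8.35 under TCDD. Acta2, the smooth muscle actin of activated stellate cells, read 9.56, 8.36, 9.28, 8.12 and 8.06 under corn oil and 11.28, 11.95, 11.20 and 11.86 under TCDD. All treated arrays lay above all controls in both, by 3.54 ± 0.41 and 2.90 ± 0.40, and the collagen cross-linker Lox and the actin-binding Tagln differed by 3.08 ± 0.36 and 2.84 ± 0.27. Of matrix proteases and inhibitors 15 of 19 measured members rose, 0 fell and 4 did not pass (median 1.30). The macrophage elastase Mmp12 read 4.84, 4.97, 5.72, 4.73 and 5.08 under corn oil and 9.94, 10.57, 11.14 and 9.72 under TCDD (5.28 ± 0.37), with treated replicate 3 highest. Adam8 and the matrilysin Mmp7 rose by 3.98 ± 0.37 and 3.82 ± 0.39.

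Other cell types gave smaller or mixed values. Hepatocyte markers had mean levels over the list from 13.18 to 13.25 on the corn oil arrays and from 12.73 to 13.12 on the treated arrays. Of this list 0 of 12 measured members rose, 7 fell and 5 did not pass (median -0.28). The falls were led by Hpd (-1.23 ± 0.26), Cyp2e1 (-0.82 ± 0.26), Apoh (-0.68 ± 0.15) and Apoa2 (-0.64 ± 0.17), while albumin Alb stood at -0.01. Without treated replicate 1 the list had 3 falls and Cyp2e1 was not called (adjusted p = 0.104), and without treated replicate 2 it had 4, whereas after median centring 11 of the 12 were called lower. Of endothelial markers 7 of 16 measured members rose, 2 fell and 7 did not pass, with 3 rises without treated replicate 2. Emcn, a sialomucin of capillaries, rose by 1.12 ± 0.17. The calls of the sinusoidal receptors Lyve1 (1.56 ± 0.52; lost in 4 omissions) and Stab1 (1.03 ± 0.30; lost without treated replicate 1) and of Plvap, of fenestrae (0.89 ± 0.26; lost without treated replicate 2), were less stable. Cholangiocyte and progenitor markers had 5 rises and 0 falls among 10. Prom1 read 4.42 to 5.35 under corn oil and 8.19, 7.78, 5.25 and 7.61 under TCDD, so that treated replicate 3 stayed within the control range (2.42 ± 0.63); Cd24a and Krt8 rose by 1.66 ± 0.36 and 0.87 ± 0.17, and Epcam (0.69 ± 0.25, adjusted p = 0.0454) lost its call in 7 omissions.

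Blood, pancreas and fat markers separated by gene. Platelet and megakaryocyte markers had 4 rises and 0 falls among 8: Pf4, platelet factor 4, read 6.78, 5.89, 6.30, 5.90 and 6.02 under corn oil and 11.04, 10.85, 9.85 and 10.52 under TCDD (4.39 ± 0.45), and Itgb3 (1.46 ± 0.34), Clec1b (1.24 ± 0.17) and Ppbp (1.22 ± 0.33; adjusted p = 0.0643 with all 60 arrays) had smaller rises. Erythroid markers had 0 rises and 2 falls among 6; the haem synthesis gene Alas2 and the erythroid factor Klf1 fell by 2.17 ± 0.39 and 1.78 ± 0.20, while the globins Hbb-bs and Hbb-bt stood at 0.17 and 0.10. In the pancreas list Ctrb1, a chymotrypsinogen gene, read 4.39, 4.16, 4.63, 4.26 and 4.09 under corn oil and 8.86, 10.51, 9.76 and 9.69 under TCDD, a rise of 5.40 ± 0.43 without overlap. The list had 1 rise and 1 fall among 11, and its other 10 members all stood at or below no difference. The lowest was the fall of glucagon Gcg (-0.47 ± 0.15), a call lost without treated replicate 1 or 3. Adipocyte markers had 1 rise and 3 falls among 7, the rise being Fabp4 and the falls Car3, Lipe (-0.79 ± 0.16) and Plin1 (-0.53 ± 0.15); Adipoq, which defines adipocytes, stood at 0.07.

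Some members were called against the direction of most calls in their list. Not all are named: further ones lie in the acute phase, complement, lipid droplet, pericentral, haem and iron, and female-biased lists. Some of those not named above are given here after their values were seen. They were the falls of the malic enzyme Me1 (-0.71) among NRF2 targets, of the chemokine Cxcl12 (-0.61; no call in 6 of the 9 omissions), of the apoptosis gene Bbc3 (-0.68) among p53 targets, of the chaperone Hyou1 (-0.84) among stress genes and of the receptors Kdr (-0.70) and Flt1 (-0.61) in endothelium, where 1 fall was left without treated replicate 3. The opposite cases were the rises of the phosphatase Lpin2 (0.76) in fat synthesis, the thioesterase Acot1 (0.73) in fat oxidation (a list left with 0 rises in some omissions), the acute phase factor Cebpb (0.65) among liver regulators (no call in 4 omissions or after median centring), and Car2 (1.65) and Car13 (2.11) among carbonic anhydrases.

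**Figure D4:**
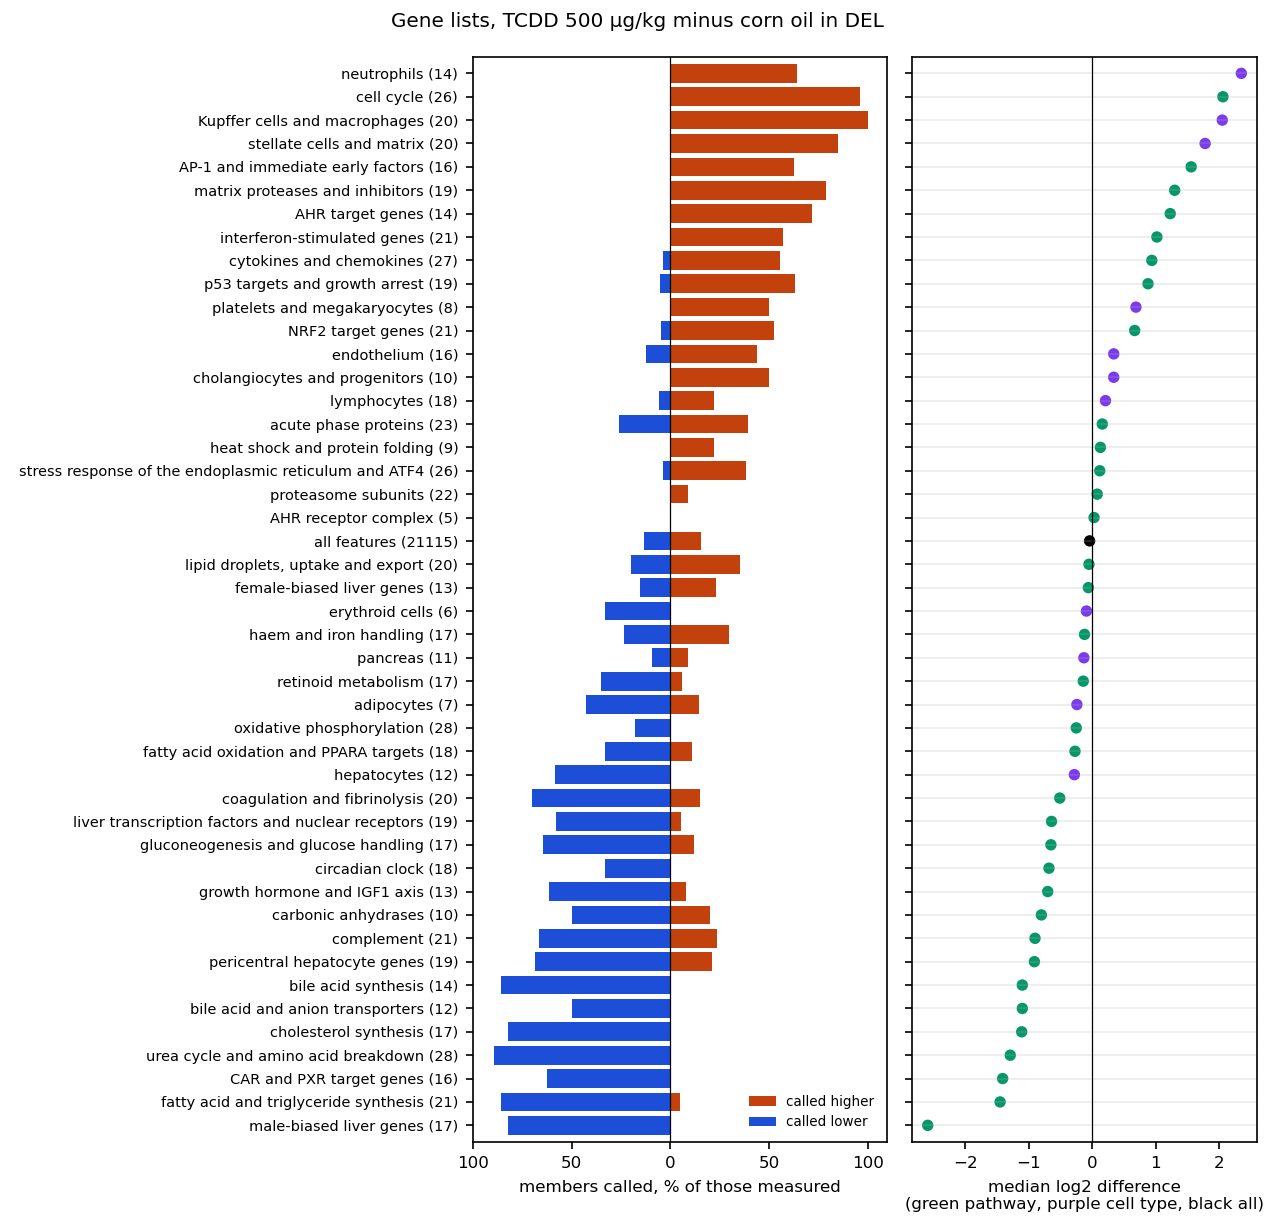
For each gene list (y axis, number measured in brackets), the left panel gives the share of measured members called higher (orange, to the right) or lower (blue, to the left) in percent, and the right panel the median log2 difference between TCDD 500 µg/kg and corn oil. Lists of neutrophils, cell cycle genes and macrophages have the highest medians (2.35, 2.06 and 2.05), male-biased liver genes the lowest (-2.59), and all gene rows -0.04.

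Genes that drive the cell cycle and genes that halt it both rose. Of 26 measured members, 25 rose, 0 fell and 1 did not pass the test in the cell cycle list (median 2.06). Ccna2, cyclin A2 of DNA replication, read 5.33, 5.04, 5.79, 5.73 and 5.60 under corn oil and 8.69, 9.72, 8.39 and 9.19 under TCDD. The groups did not overlap, and the rise was 3.50 ± 0.33 (adjusted p = 2.71e-07). The mitotic genes Ccnb2, Aurkb and Cdk1 differed by 3.29 ± 0.36, 3.19 ± 0.30 and 2.68 ± 0.34. Cdkn1a, the inhibitor p21 that halts the cycle, read 8.55, 7.52, 7.84, 6.94 and 6.99 under corn oil and 11.59, 11.94, 11.98 and 12.19 under TCDD, also without overlap (4.35 ± 0.28, adjusted p = 2.84e-09). In its list of p53 targets and growth arrest 12 of 19 measured members rose, 1 fell and 6 did not pass (median 0.88), with the death receptor Tnfrsf10b at 3.33 ± 0.38, Gadd45b at 3.23 ± 0.30 and Phlda3 at 1.94 ± 0.29. Of AP-1 and immediate early factors 10 of 16 measured members rose, 0 fell and 6 did not pass (median 1.56). Atf3, a stress-induced factor, rose by 3.12 ± 0.27, Klf6 by 2.29 ± 0.20, Ier3 by 2.28 ± 0.24 and Maff by 2.06 ± 0.32.

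In the endoplasmic reticulum and ATF4 stress list 10 of 26 measured members rose, 1 fell and 15 did not pass, with a median of 0.12. The falls numbered 6 after median centring, 3 without treated replicate 2 and 2 without treated replicate 4. Psat1, of serine synthesis, read 6.29, 5.67, 5.56, 5.93 and 5.76 under corn oil and 11.09, 10.67, 9.08 and 11.47 under TCDD, with treated replicate 3 lowest but above all controls (4.74 ± 0.40, adjusted p = 6.72e-08). The folate enzyme Mthfd2 rose by 1.80 ± 0.20 and asparagine synthetase Asns by 1.48 ± 0.32 (not called with all 60 arrays, adjusted p = 0.0556), while the chaperone Hspa5, the standard marker of the unfolded protein response, stood at 0.01. Heat shock and protein folding genes had 2 rises and 0 falls among 9, namely the collagen chaperone Serpinh1 (1.75 ± 0.29) and Hspa8 (0.27 ± 0.07), which was not called after median centring. Oxidative phosphorylation subunits had 0 rises and 5 falls among 28 (median -0.25), a share close to the 13.2% of all rows called lower. Those named are Sdha (-0.66 ± 0.13), Ndufa9 (-0.62 ± 0.13), Sdhc (-0.56 ± 0.13) and Ndufs1 (-0.34 ± 0.11, call lost in 2 omissions and with all 60 arrays). The falls numbered 3 without corn oil replicate 4 and 20 after median centring. Proteasome subunits had 2 rises and 0 falls among 22, a share of rises below the 15.3% of all rows called higher. Psmd14 stood at 0.68 ± 0.12 and Psmc4 at 0.27 ± 0.10, whose call was lost in 7 omissions. After quantile normalization 5 rises were called.

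Of the remaining largest rises, Sprr1a, a small proline-rich protein of the cornified envelope of skin and of stressed epithelia, read 7.22, 5.55, 5.35, 4.93 and 5.87 under corn oil and 10.48, 12.00, 11.04 and 11.92 under TCDD. Cyp21a1, the steroid 21-hydroxylase of the adrenal cortex, read 5.44, 4.90, 5.27, 5.74 and 4.71 under corn oil and 11.12, 11.61, 8.79 and 11.39 under TCDD. Both were fully separate between groups, at 5.58 ± 0.67 and 5.52 ± 0.86, and Cyp21a1 was lowest among the treated in replicate 3. Ecel1, an endothelin-converting enzyme homologue of neurons, read 4.67 to 5.30 under corn oil and 9.83 to 10.55 under TCDD (5.10 ± 0.23). Ly6d, a surface protein of squamous epithelium and B cell precursors, read 7.06 to 7.53 and 11.61 to 12.92 (4.87 ± 0.62).

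Whether 500 µg/kg differed from the other doses was tested directly between the treated DEL groups, which involves no control array. No gene row was called against 125, 250 or 1000 µg/kg by limma (0 of 21115, 0%, in each). An unadjusted p under 0.05 was found in 2098, 804 and 864 rows, most against 125 µg/kg. The absence of calls does not show that the doses acted alike. Cyp1a1 means were 12.97, 12.96, 12.90 and 12.92 from the lowest to the highest dose, and Cyp1b1 means 12.39, 12.03, 12.22 and 12.13. Whether readings this high on the scale can show a dose difference was not tested. Gpnmb means were 10.64, 11.47, 11.69 and 11.60, and Hsd3b5 means 5.20, 5.31, 4.51 and 4.94. None of these 4 genes was called between 500 µg/kg and another dose, and the lower doses were not tested against each other. The gene with the smallest p in all 3 comparisons was Cebpd, a transcription factor of the acute phase. It read 5.88, 5.74, 5.60 and 5.90 at 500 µg/kg, against 4.74 to 5.25 at 125, 4.75 to 5.23 at 250 and 5.09 to 5.37 at 1000 µg/kg, so that no array at another dose reached the 500 µg/kg group. Cebpd was picked by its smallest p, so this gap is no separate evidence of a dose difference. Its differences from those doses were 0.74 ± 0.12, 0.72 ± 0.12 and 0.57 ± 0.12, with adjusted p = 0.155, 0.209 and 1, and it was higher than under corn oil by 1.01 ± 0.12 (adjusted p = 2.21e-06).

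The next genes in that order were the matricellular Ccn2 and the lipid transporter Abca8b against 125 µg/kg (1.64 ± 0.32 and -0.75 ± 0.15; adjusted p = 0.325 for both). Against 250 µg/kg they were the class II transactivator Ciita and the survival gene Bcl2l1 (-0.90 ± 0.17 and 0.73 ± 0.14; adjusted p = 0.332 for both). Against 1000 µg/kg they were Gemin4, of the survival motor neuron complex, and the skin protease Asprv1 (-0.61 ± 0.13 and 0.92 ± 0.21; adjusted p = 1 for both). Leaving out treated replicate 3 gave 5 calls against 125 µg/kg, and leaving out replicate 4 at 250 µg/kg gave 1 call against 250 µg/kg. The 5 were Cebpd, Chil3 and F13a1, higher at 500 µg/kg, and F8 and Cdc14b, lower, and the 1 was Ciita, lower; they are named after their values were seen.

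The effect of the same dose in INS liver was set against that in DEL liver by testing the difference between the lines' changes from their own corn oil mice, in a fit of 43 arrays. A difference was called in 2943 rows (13.9%), the change being more positive in DEL in 1775 (8.41%) and more negative in 1168 (5.53%). After median centring 4373 rows were called, 28.9% of them more positive in DEL against 60.3% as deposited, with the median of all rows at -0.27. The receptor's nearest targets did not differ by the test. Cyp1a1 rose by 4.77 in DEL and stood 4.80 above corn oil in INS (difference -0.03 ± 0.28, adjusted p = 0.972). The difference was 0.19 ± 0.47 for Cyp1b1, -0.15 ± 0.11 for Cyp1a2, 1.05 ± 0.42 for Tiparp (adjusted p = 0.0984) and 1.23 ± 0.50 for Ahrr (adjusted p = 0.103). The sign turned for Cyp1a1 after quantile normalization (0.47) and for Cyp1b1 after median centring (-0.06), and a p above the threshold does not show that the lines acted alike. Nqo1 did differ, at 1.90 ± 0.44 (adjusted p = 0.00219).

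Most of the largest DEL changes were smaller in INS. These genes were picked for their size in DEL, a choice that by itself favours smaller values in INS. Gpnmb changed by 1.29 in INS, where its 4 treated arrays read 5.74, 3.97, 7.41 and 4.86, so that the difference between lines was 5.37 ± 0.83 (adjusted p = 2e-05). Ly6d (4.58 ± 0.80), Cyp21a1 (4.55 ± 0.98), Sprr1a (4.51 ± 1.09) and Mmp8 (4.36 ± 0.46) were the next most positive. Hsd3b5 read 9.86, 11.27, 10.64 and 11.61 in the 4 treated INS mice, a change of -0.85, and the difference was -6.63 ± 1.0 (adjusted p = 1.5e-05). Cyp7a1 changed by 0.32 in INS (difference -5.18 ± 1.24), and Serpina4-ps1 (-4.98 ± 1.08), Sult2a8 (-4.75 ± 1.12) and Slco1a1 (-4.71 ± 1.01) followed. Among the 15 largest rises and 15 largest falls, the difference between lines was not called for Cyp1a1, Cyp1b1, Ctrb1 (1.42 ± 1.10), Ecel1 (1.64 ± 0.89) and Elovl3 (-3.55 ± 1.27, adjusted p = 0.0563). By list, the difference was called more positive in DEL for 18 of 20 macrophage markers, 18 of 26 cell cycle genes and 9 of 14 neutrophil markers, and more negative for 21 of 28 urea cycle and amino acid genes, 14 of 21 fat synthesis genes and 12 of 17 male-biased genes. In the AHR target list it was called for 3 of 14, all more positive in DEL. Over all rows 8.41% were called more positive in DEL and 5.53% more negative.

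**Figure D5:**
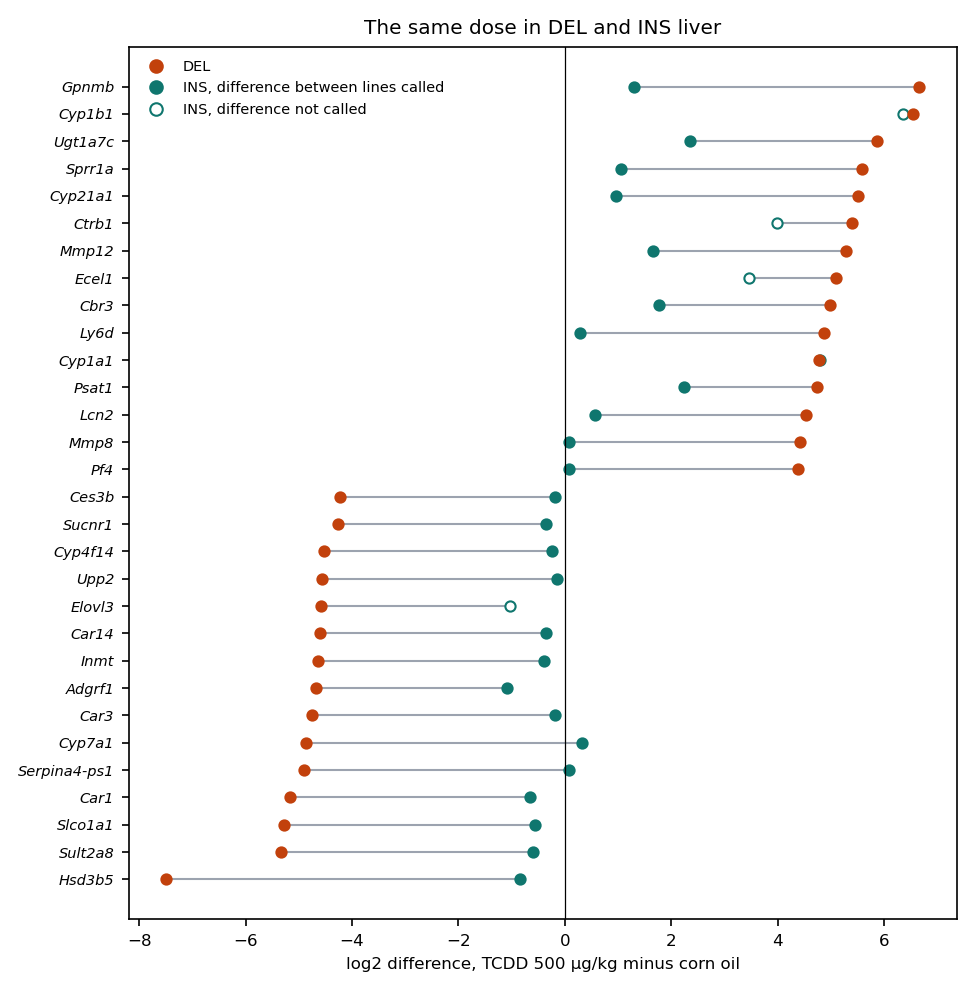
The log2 difference between TCDD 500 µg/kg and corn oil (x axis) in DEL (orange) and INS (green) for the 15 largest rises and 15 largest falls in DEL (y axis). Filled green points mark genes whose change differed between the lines by the test. Open points mark those where it did not, and the Cyp1a1 and Cyp1b1 points of the lines lie together.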

How the data were processed

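Liver RNA was hybridised to Affymetrix arrays, 1 per mouse. The deposited table holds log2 expression values, which the authors made with RMA (R 3.1.2, affy 1.44.0) per the submitters' processing notes; RMA corrects background, quantile-normalizes and summarises probes. The labels do not say whether the lines were normalized together. Of 21115 gene rows, 20405 had 1 gene symbol, 0 had several and 710 had none; 1307 predicted names were not named.

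Differences were tested without rescaling, with limma 3.58.1 in R 4.3.3 (two-sided moderated test, Benjamini-Hochberg over all rows). The 21 DEL arrays gave 1 mean for each of 5 groups, and 43 DEL and INS arrays 10 means. The scripts were tested on simulated data. SE is the fit's standard error, the number of arrays limits precision, and each omission left out 1 array of the groups compared (9 for the comparison with corn oil).

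Genes named are 8 AHR genes, the 15 largest rises and 15 largest falls among called genes without overlap, up to 4 called members of each gene list (2 as values where none was called), and the 5 largest called differences from INS in each direction (for dose comparisons without calls, the 3 smallest p). The members and lists were chosen with earlier results of these data known. Alternatives were all 60 arrays, only the 9 arrays, median centring, quantile normalization, a filter at a mean of 5, limma-trend with robust variance, a replicate block and omissions. In an earlier look at the series, array levels followed the line, and sex-linked genes of 4 arrays of another line went against their label. The other lines were therefore left out of the DEL fit, whereas the fit of all 60 arrays holds those arrays.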

Additional observations from a re-analysis of the deposited data

Results flagged for a closer look

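Within the 4 treated mice, 15 of the 182 named genes had 1 array far from the other 3, and in 13 of them it was replicate 3. How often chance gives such a gap among these genes, which are not independent, was not tested. Treated replicate 3 was higher than the other 3 in Hsd3b5 (7.37), Sult2a8 (8.73), Cyp4f14 (9.16), Cyp2c54 (11.03), Cyp7b1 (10.68), Slc27a5 (10.75), Slc10a1 (12.38), Pmvk (8.42), Hlf (8.23), Thrb (7.49) and Ndufa9 (10.5). For Hsd3b5 the other treated values were 3.21 to 3.75. It was lower than the other 3 in Nqo1 (10.93) and Usp18 (10.31). Treated replicate 1 stood apart in Slco1a4 (8.59) and treated replicate 2 in Emcn (9.75). Among the 5 corn oil mice 5 of 182 genes had such an array, namely Hsd3b5 in replicate 4 (12.37), Hsp90aa1 in replicate 2 (5.73), Ier3 in replicate 5 (5.79), Sdhc in replicate 3 (11.37) and Apoa2 in replicate 2 (13.68).

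Of the AHR genes followed throughout, Nqo1 was called for a difference between DEL and INS in the change from corn oil (1.9). The other genes given here were picked as the 5 largest called differences in each direction, so their calls were fixed by that choice. The change was more positive in DEL for Nqo1, the macrophage gene Gpnmb (5.37), Ly6d (4.58), Cyp21a1 (4.55), Sprr1a (4.51) and the neutrophil collagenase Mmp8 (4.36). It was more negative in DEL for Hsd3b5 (-6.63), Cyp7a1 (-5.18), Serpina4-ps1 (-4.98), Sult2a8 (-4.75) and Slco1a1 (-4.71).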

How the results depend on the processing

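The number of gene rows called against corn oil was 6026 and stayed between 5440 and 6624 with all 60 arrays, only the 9 arrays, quantile normalization, the filter, limma-trend and the replicate block, and at 4994 to 6033 with 1 array left out. Median centring gave 9632 (2068 higher, 7564 lower), which moves all treated values down by construction. The dose comparisons had 0 calls in each of these settings except with 1 array left out, where the counts were 0 to 5 against 125 µg/kg, 0 to 1 against 250 µg/kg and 0 against 1000 µg/kg. The difference from INS was called in 2943 rows, in 4373 after median centring (1265 more positive in DEL, 3108 more negative), in 2592 to 3324 in the other settings, and in 2322 to 3330 with 1 array left out. Of the 182 named genes, 174 kept sign and call with all 60 arrays, 180 with quantile normalization and 182 with limma-trend. The filter left 178 of them to be tested, and all of these kept both. With the replicate block 178 kept both and 4 calls were lost. Median centring kept 174, with 4 calls lost, 2 gained and 2 signs reversed. The calls lost with all 60 arrays were those of Dbp, Tef, Acot3, Asns, Ndufs1, Psmc4, Epcam and Ppbp. Median centring also raised the falls from 0 to 3 among interferon-stimulated genes and proteasome subunits, from 1 to 3 among cytokines, from 1 to 4 in the pancreas list and from 2 to 5 in endothelium.

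Estimates near 0 changed sign. Against corn oil, Ahr was -0.21 and Abca8b -0.20 after median centring. With 1 array left out, Abca8b ran from -0.02 to 0.17, Aldh3a1 from -0.16 to 0.01 and Ciita from -0.11 to 0.08. For the difference from INS, Cyp1b1 was -0.06 after median centring and Cyp1a1 0.47 after quantile normalization. With 1 array left out, Cyp1b1 ran from -0.14 to 0.44, Cyp1a1 from -0.21 to 0.12 and Aldh3a1 from -0.15 to 0.01. The cause was not tested.

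The labels give replicate numbers without stating that they pair mice across groups, and no clear pairing was seen. Over 40 same-numbered pairs of DEL arrays, deviations from group means correlated at -0.59 to 0.466 (median 0.0174). Over 136 pairs with different numbers they correlated at -0.671 to 0.555 (median -0.0106). With the replicate block 5440 rows were called against corn oil, 0 in each dose comparison and 2769 for the difference from INS. Signal over background was not available for single arrays, so rows with low values cannot be told from background here.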

Other observations

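Further gene families were looked at after their values were seen, as a description, beside the 15.3% of all rows called higher and 13.2% called lower. All 7 measured Schlafen genes, which interferon and differentiation of myeloid cells regulate, rose (median 1.70), led by Slfn4 (3.24), Slfn2 (2.74) and Slfn1 (2.70). Of 12 C-type lectins of the Clec4 and Clec7 groups, receptors of myeloid cells, 9 rose and 0 fell (median 2.19), with Clec4e at 3.57 and Clec7a at 3.51. Of 20 Ms4a genes, 10 rose and 1 fell, with Ms4a6c at 3.92 and Ms4a6d at 3.66, while the B cell marker Ms4a1 stood at -0.42 and did not pass the test. Of 14 S100 genes 6 rose and 0 fell, with S100a8 at 2.73 and S100a11 at 2.64. Of 13 small proline-rich genes, Sprr1a was the 1 that rose. Of 15 tubulin genes 5 rose, 1 fell and 9 did not pass (median 0.20). Of 24 Slc22a genes 0 rose, 5 fell and 19 did not pass (median -0.14).

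Families of liver enzymes fell in part. Of 17 carboxylesterase genes 9 fell and 1 rose, from -4.23 for Ces3b and -3.52 for Ces1e to 1.11 for Ces1b. Of 9 Cyp2d genes 8 fell and 0 rose (median -0.60), with Cyp2d13 at -3.23 and Cyp2d40 at -2.91. Of 6 Hsd3b genes 5 fell and 0 rose (median -2.11), with Hsd3b2 at -3.78 and Hsd3b3 at -3.14 beside Hsd3b5. Close relatives in these families are alike in sequence, and how far their rows share signal was not tested.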
